A study of Mus musculus with 4 samples.

Results

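The proteasome genes were defined by their symbols. They were the protein-coding mouse genes named Psma to Psmg followed by a number, which gave 50 genes of the 21951 protein-coding genes in the annotation. A peak of N6-methyladenosine (m6A) was listed for 45 of them, with 86 peaks among the 18250 peaks of all protein-coding genes. No peak was listed for Psma8, Psmb11, Psme2b, Psmg1 or Psmg2. The pattern also took in Psmc3ip, a meiotic recombination factor that is no part of the proteasome, and its own values are given apart. It stays in the totals, which without it were 44 of 49 genes with a peak and 84 peaks.

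The proteasome degrades proteins that carry ubiquitin chains. Its 20S core is a barrel of alpha and beta rings with the proteolytic sites inside, and its 19S cap recognises ubiquitin, unfolds the substrate with a ring of ATPases and feeds it into the core. Lymphocytes and cells exposed to interferon gamma replace the catalytic subunits Psmb5, Psmb6 and Psmb7 by Psmb8, Psmb9 and Psmb10, which forms the immunoproteasome, a form known for producing peptides for MHC class I. m6A is an internal modification of mRNA that is written by the METTL3 complex at DRACH sequences (A, G or T at D, either purine at R, and any base but G at H) and is known to be frequent near stop codons.

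The data came from splenic NK cells of C57BL/6 mice and comprised 2 m6A immunoprecipitates, made with an antibody from Synaptic Systems, and 2 input RNA libraries without antibody. Poly(A) RNA was used in each. Per the study's methods the mice had received a pLIVE plasmid encoding IL-15 to expand NK cells in vivo, and the cells were sorted, so all 4 libraries describe IL-15-exposed NK cells. Mice in the study were between 6 and 10 weeks old, with no age stated for these samples. The pooling of animals and whether the libraries of a group came from separate mice are not given in the sources used here.

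The peak list held 1 fold enrichment (immunoprecipitate over input) and 1 peak-calling p-value for each peak, and 0 columns with a value per library. The depth of the libraries is therefore unknown, replicate error could not be computed, and the comparisons are counts, ranges and medians set beside those of all protein-coding genes, without a test. A peak shows enrichment over input and not how much of an RNA was present, and in a bulk profile fewer cells with an RNA and less RNA per cell cannot be told apart. Among marker genes, all 11 NK cell genes had a peak, beside 3 of 6 T cell, 3 of 5 B cell and 5 of 5 myeloid genes. The share was 46.3% over all protein-coding genes. Each of these marker genes with a peak had one with a p-value under 0.001. Cd4, Cd8a, Cd5 and Ms4a1 were among those without a peak. Among those with one were Cd3g, Cd79b and Csf1r, with lowest log10 p values of -46.8, -27.6 and -322. RNA from other cell types can carry proteasome mRNA, and its part in the values was not tested.

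The sequences that lie under the peaks are shown for the 3 immunoproteasome genes, their 3 constitutive counterparts and the 5 genes with the most significant peaks, since the results turn on these. Each line gives 25 nt of the mRNA, 5′ to 3′, around 1 site in the most significant peak of the gene, and capitals mark the DRACH pentamer. The site is the DRACH pentamer of the form GGAC with A, C or T after it that is nearest the centre of the peak or, where the peak holds no such pentamer, the nearest DRACH of any form. These are sequence matches and not mapped modifications.
Psmb8: ggggtcgctcGGACCcgggacacta
Psmb5: ctgacttacaTGACAagtacagtag
Psmb9: ctgctggtgtGGACCatcgagtcat
Psmb6: gtctccacagGGACCacgatcatgg
Psmb10: tttgctcctgGAACCacacctgtcc
Psmb7: ctcggcccggAAACActttcttggc
Psma3: ctagcaccatGGACTatatataccc
Psmd13: atgggaatggGGACAgggtagtctc
Psme1: ctgtgttataTGACAtcatcctgaa
Psmb1: atttaagctgGGACTagaatatcct
Psma6: aaatttgattGGACAtttgaacaga

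In GRCm38 the sites of Psmb8 and Psmb9 lay at chr17:34198472-34198496 (plus strand) and chr17:34182261-34182285 (minus strand), both in coding sequence. That of Psmb10 was at chr8:105935865-105935889 (minus strand), 81 nt before the stop codon. The sites of the counterparts lay at chr14:54614208-54614232 (Psmb5, minus strand, coding sequence), chr11:70525484-70525897 (Psmb6, plus strand, across a splice junction of the coding sequence) and chr2:38643906-38643930 (Psmb7, minus strand, 5′ UTR). Those of Psma3 (chr12:70994446-70994470, plus strand) and Psmd13 (chr7:140898545-140898569, plus strand) lay 65 nt and 271 nt past the stop codon, and that of Psmb1 (chr17:15476343-15476367, minus strand) 887 nt past it. The sites of Psme1 (chr14:55581302-55581326, plus strand) and Psma6 (chr12:55412333-55412357, plus strand) were in coding sequence.

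m6A peaks were found in most genes of the proteasome, while the share of genes with high enrichment was near that of all protein-coding genes. Of the 50 genes, 45 (90%) had a peak, against 46.3% of all protein-coding genes, and 42 (84%) had a peak with a p-value under 0.001, against 34%. The comparison took in every protein-coding gene of the annotation, expressed in NK cells or not, since the list does not show expression. Ribosomal protein and initiation factor genes reached 93.4% and 87.3% with a peak. At a fold of at least 2 the share with a peak was 50%, against 35.0%. Peaks at or above a fold of 5, called strong, were present in 9 genes (18%), against 20.1% of all protein-coding genes, and in 8% against 16.8% where at least 50 nt of a coding isoform had to be covered. Among genes with any peak, the strong share was 20% for the proteasome and 43.4% for all, and the share with a p-value under 0.001 was 93.3% against 73.3%. The proteasome genes often had several peaks, with 2 or more in 26 of the 45 (57.8%, against 46.7%). The median fold enrichment was 1.72 over the 86 peaks, with a middle range from 1.45 to 2.29, and 2.37 over all peaks of protein-coding genes. Fold enrichment was under 2 in 56 of the 86 peaks (65.1%, against 39.7%), and these low peaks were often significant, with a p-value under 0.001 in 48 of the 56 (85.7%, against 70.7% of all peaks under a fold of 2). The median log10 p was -8.62 for proteasome peaks and -4.16 for all.

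**Figure D1:**
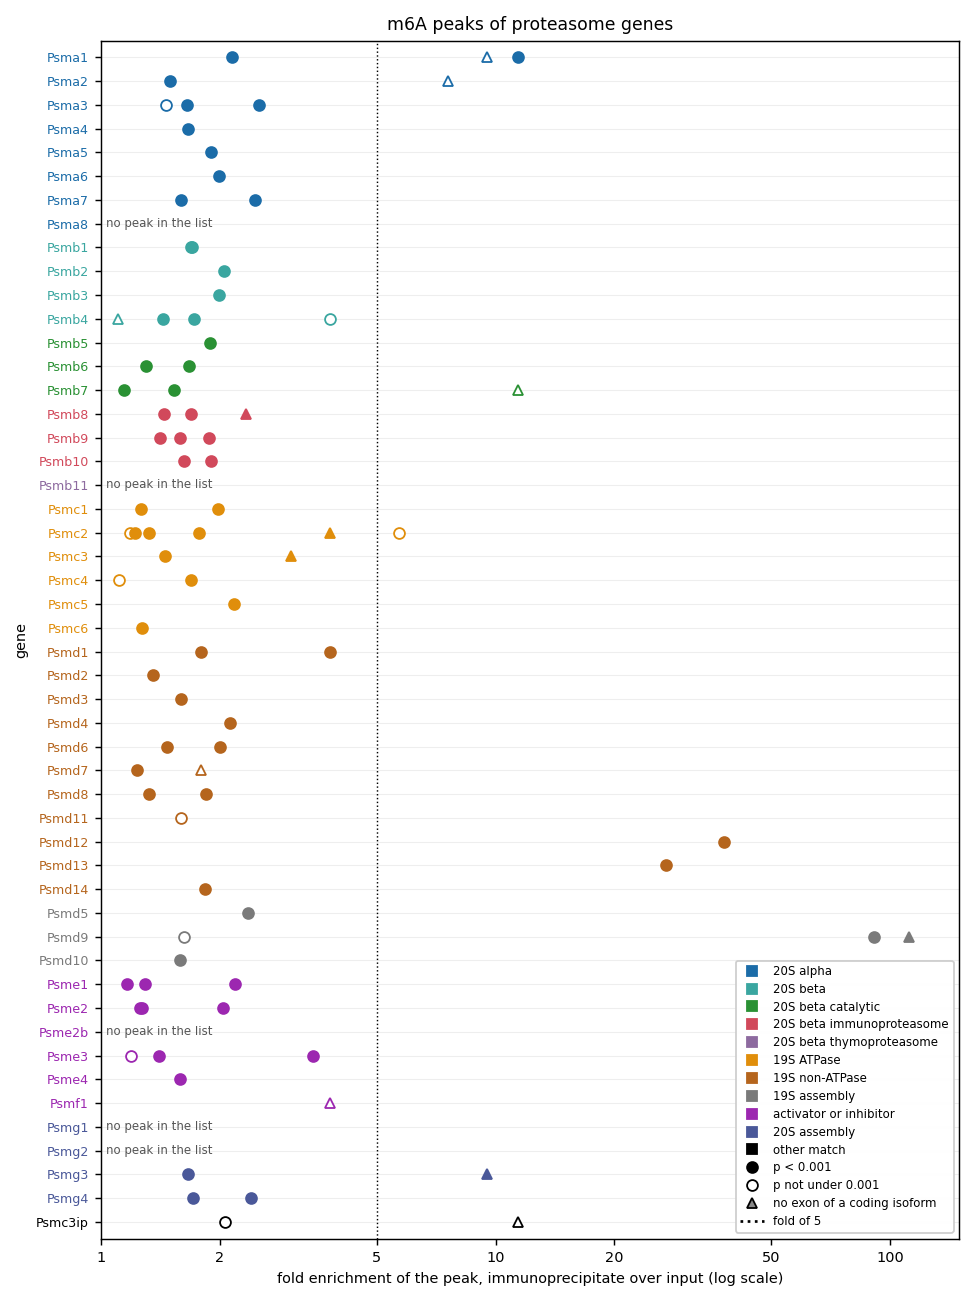
Fold enrichment of each peak (immunoprecipitate over input, log axis) for the 50 genes in order of role, with colour for role, filled symbols for a p-value under 0.001, open symbols for a higher p-value and triangles for peaks that touch no exon of a coding isoform. Most of the 86 peaks lie between 1.10 and 2.5, the 8 immunoproteasome peaks lie between 1.41 and 2.32, and the peaks beyond the dotted line at a fold of 5 belong to 9 genes.

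The alpha subunits form the outer rings of the 20S core, which gate the channel. Of their 8 genes, 7 had a peak with a p-value under 0.001, against 34% of all protein-coding genes. The exception, Psma8, which encodes the testis form, had none. Codons and regions named for peaks of single genes below are those of the longest coding transcript, and coverage can differ on other isoforms. The most significant peak of any proteasome gene was at Psma3 (ENSMUSG00000060073, chr12:70984667-70994520), where the fold enrichment was 2.51 at a log10 p of -147. It held 563 exonic nt on both sides of the stop codon and ranked 269 of 18250 by p-value. The same span overlapped 441 nt of 3110056K07Rik on the opposite strand. A second Psma3 peak lay over the start codon with a fold of 1.65 (log10 p of -9.07), and another in the 3′ UTR had a fold of 1.46 and a log10 p of -1.45.

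The other alpha genes without a strong peak, Psma4 to Psma7, had folds from 1.59 to 2.45. Psma6 (ENSMUSG00000021024, chr12:55410246-55418454) had 1 peak with a fold of 1.99 and a log10 p of -63.4, which covered 50.8% of the transcript with the stop codon. Psma4 had a fold of 1.66 (log10 p of -54.1), also over the stop codon, and Psma5 one of 1.90 (log10 p of -11.3) over the start codon. On the longest transcript, Psma7 was the alpha gene whose peaks covered neither codon. It had a fold of 1.59 at the end of the 3′ UTR (log10 p of -15.7). Over 31 nt of exon 2 the fold was 2.45 (log10 p of -19.9).

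Both alpha genes with a strong peak, Psma1 and Psma2, had their most significant peak elsewhere in the gene and with a low fold. For Psma1 (ENSMUSG00000030751) the peak over the stop codon had a fold of 2.14 and a log10 p of -17.9. Its peak of 11.4 held 45 nt of coding exon 2 (log10 p of -3.95), and that of 9.48 held only sequence of a non-coding isoform (log10 p of -1.69). For Psma2 (ENSMUSG00000015671) the fold over the stop codon was 1.49 (log10 p of -15.5). The peak of 7.59 (chr13:14638145-14639096, log10 p of -1.96) touched 0 nt of Psma2 exons and 952 nt of exons of AW209491.

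Of the beta subunits without a catalytic site (Psmb1 to Psmb4), all 4 had a peak over the stop codon and none had a strong peak. Over all protein-coding genes, 32.1% of those with a placed peak had the former and 20.1% of all had the latter. Psmb1 (ENSMUSG00000014769, chr17:15475780-15490274) had the widest peak of any proteasome gene relative to its mRNA. It covered 1582 nt or 80.3% of the longest transcript, with a fold of 1.69 and a log10 p of -71.4, and the Psmb1 peak over the start codon had a fold of 1.70 (log10 p of -32.7). Psmb2 and Psmb3 had 1 peak each, with folds of 2.04 (log10 p of -10.9) and 1.99 (log10 p of -21.7). Psmb4 had 4 peaks, of which the 2 over the stop codon (1.43, log10 p of -13.8) and the start codon (1.72, log10 p of -24.4) had p-values under 0.001 and those of 3.79 (log10 p of -1.64) and 1.10 (log10 p of -1.67) did not.

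Whether the immunoproteasome subunits differ from the constitutive subunits they replace was described gene by gene. All 3 immunoproteasome genes had several peaks with folds of at most 2.32, and the most significant peak of each had a lower p-value than any peak of the counterparts. The 8 peaks of Psmb8, Psmb9 and Psmb10 had folds from 1.41 to 2.32 with a median of 1.66, and the 6 peaks of Psmb5, Psmb6 and Psmb7 had folds from 1.14 to 11.4 with a median of 1.6. The upper value of 11.4 was a Psmb7 peak outside the exons of the gene, and at a p-value under 0.001 the counterparts ranged from 1.14 to 1.89. The Psmb8 peak of 2.32 lay above them but touched no exon of a coding isoform. On coding isoforms the highest folds were 1.69 in Psmb8, 1.87 in Psmb9 and 1.90 in Psmb10, so only that of Psmb10 exceeded 1.89, and barely. The medians differed by 0.05 on the log2 scale, and by 0.11 over peaks with a p-value under 0.001. The median log10 p was -25.4 for the immunoproteasome and -7.89 for the counterparts. A p-value of a peak grows smaller with read number as well as with enrichment, and without counts the contribution of each cannot be told apart.

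Psmb8 (ENSMUSG00000024338) encodes the chymotrypsin-like subunit that takes the place of Psmb5. Its peaks covered the start codon (chr17:34198344-34198734, fold of 1.69, log10 p of -42.4) and the stop codon in exon 6 of 6 (chr17:34201216-34201454, fold of 1.44, log10 p of -33.1), and another peak of 60 nt in a non-coding isoform (chr17:34198793-34198852) had a fold of 2.32 and a log10 p of -3.46. Psmb5 (ENSMUSG00000022193) had 1 peak, over the stop codon in exon 3 of 3 (chr14:54614120-54614323), with a fold of 1.89 and a log10 p of -13.9. The start codon was thus covered in Psmb8 and not in Psmb5, and the fold over the stop codon was higher in Psmb5.

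Psmb9 (ENSMUSG00000096727) replaces Psmb6, the subunit with caspase-like activity. It had peaks over the stop codon (chr17:34181988-34183205, fold of 1.87, log10 p of -37.1) and in the coding sequence (chr17:34183535-34183749, 1.41, log10 p of -5.49, and chr17:34184379-34185935, 1.58, log10 p of -17.7). Psmb6 (ENSMUSG00000018286) had a peak over the start codon (chr11:70525367-70525964, fold of 1.67, log10 p of -15.0) and one over the stop codon (chr11:70527502-70527680, fold of 1.30, log10 p of -9.89). Here the fold over the stop codon was the higher one in the immunoproteasome gene.

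Psmb10 (ENSMUSG00000031897) replaces Psmb7, the trypsin-like subunit. Its peak over the stop codon (chr8:105935735-105936094) had a fold of 1.62 and a log10 p of -35.7, and that over the start codon (chr8:105937966-105938175) had a fold of 1.90 and a log10 p of -8.76. Psmb7 (ENSMUSG00000026750) was the catalytic gene without a peak over the stop codon. Its peak over the start codon (chr2:38643401-38643938) had a fold of 1.53 and a log10 p of -5.89, and that in exon 4 (chr2:38640146-38642229) had a fold of 1.14 and a log10 p of -3.41. The peak of 11.4 assigned to Psmb7 (chr2:38622946-38623264, log10 p of -2.09) touched 0 nt of its exons and 319 nt of the pseudogene Gm13586 on the opposite strand.

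Over the 3 pairs, the stop codon was covered in 3 immunoproteasome genes and 2 counterparts, and the start codon in 2 of each. Among all protein-coding genes with a placed peak the shares were 32.1% and 23.6%. The 3 pairs shared 64.0% to 69.1% of aligned coding bases, with 69.1% for Psmb8 and Psmb5, 67.6% for Psmb9 and Psmb6 and 64.0% for Psmb10 and Psmb7. Against all 16 other core genes, whose 27 peaks had a median fold of 1.72, the immunoproteasome median minus theirs was -0.06 on the log2 scale. Psmb11, the thymoproteasome subunit of cortical thymic epithelium, had no peak.

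The 19S ATPases Psmc1 to Psmc6, which form the ring that unfolds substrates, had 14 peaks in 6 of 6 genes. A peak was present in 46.3% of all protein-coding genes. Of the 6, 5 had a peak over the stop codon, against 32.1% of all protein-coding genes with a placed peak. Among the ATPases, Psmc5 (ENSMUSG00000020708) had the most significant peak, with a fold of 2.17 and a log10 p of -44.2. Psmc1 had a fold of 1.97 over the stop codon (log10 p of -24.4), Psmc4 one of 1.69 (log10 p of -11.3) and Psmc6 one of 1.27 (log10 p of -3.19). The exception on the longest transcript was Psmc3, with a fold of 1.45 in the coding sequence (log10 p of -21.4). That peak held 334 nt of the longest transcript and 504 nt over all coding isoforms. A second Psmc3 peak of 3.03 touched 0 nt of its exons and 150 nt of Slc39a13 on the opposite strand (log10 p of -6.25).

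Psmc2 (ENSMUSG00000028932) had 6 peaks, the most of any proteasome gene, and they spread from the 5′ UTR to the stop codon. The peak over the stop codon had a fold of 1.77 and a log10 p of -32.5. The others had folds from 1.18 to 5.69, and their log10 p lay between -4.26 and -1.63. The strong one, in the 5′ UTR, was the least significant of the 6.

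The 11 non-ATPase genes of the 19S cap hold the scaffold, the ubiquitin receptors and the deubiquitinase. Each had a peak, 10 had one with a p-value under 0.001 and 6 had one over the stop codon. The shares over all protein-coding genes were 46.3%, 34% and, of those with a placed peak, 32.1%. Psmd13 (ENSMUSG00000025487) and Psmd12 (ENSMUSG00000020720), 2 subunits of the lid, stood apart with strong peaks on the coding mRNA. At Psmd13 the peak covered 450 nt of exon 13 of 13 with the stop codon (chr7:140898165-140898643), with a fold of 27.1 and a log10 p of -137. It ranked 292 of 18250 by p-value and 1244 by fold. At Psmd12 the peak covered 987 nt, or 50.5% of the transcript (chr11:107494641-107504362), with a fold of 37.9 and a log10 p of -16.1. It held 31 DRACH sites, the most of any proteasome peak, and the Psmd13 peak held 10.

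The remaining cap genes had folds between 1.23 and 3.79. Psmd4 (ENSMUSG00000005625), a ubiquitin receptor, had a fold of 2.12 at the end of its 3′ UTR (log10 p of -37.8). Psmd1 and Psmd2, the large scaffold subunits, had peaks over the stop codon with folds of 1.79 (log10 p of -25.6) and 1.35 (log10 p of -9.84), and Psmd1 had one of 3.79 in the 5′ UTR (log10 p of -3.53). Psmd14, the deubiquitinase, and its partner Psmd7 had peaks in the 3′ UTR that did not reach the stop codon, with folds of 1.83 (log10 p of -6.60) and 1.23 (log10 p of -3.40).

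The lid subunits Psmd6 and Psmd3 had folds of 2.0 (log10 p of -16.5) and 1.59 (log10 p of -7.34) over the stop codon, and Psmd6 had one of 1.47 in the coding sequence (log10 p of -7.17). Psmd8 had a fold of 1.84 over 630 nt of its 3′ UTR (log10 p of -24.1) and of 1.32 over the start codon (log10 p of -3.45). Psmd7 had a second peak of 1.79 in a non-coding isoform (log10 p of -2.89). Psmd11, which links the lid to the core, had the weakest evidence of the cap, a fold of 1.59 with a log10 p of -2.17. All 17 genes of the cap had a peak, against 17 of 19 of the core and 46.3% of all protein-coding genes.

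The assembly factors had less significant peaks than most subunits. The median over genes of the lowest log10 p was -4.27 for the chaperones of the cap and -6.96 for those of the core, beside -16.5 in the cap and -21.7 in the core itself. None of the 3 chaperones of the cap (Psmd5, Psmd9 and Psmd10) had a peak over the stop codon, against 32.1% of all protein-coding genes with a placed peak. Psmd5 and Psmd10 had folds of 2.35 (log10 p of -3.37) and 1.58 (log10 p of -4.27), both in the 3′ UTR. Psmd9 (ENSMUSG00000029440) had the highest folds of all the proteasome genes, 112 and 91.0, in 2 nested peaks. The larger ran over a span of 183291 nt (chr5:123047373-123230663, log10 p of -28.8) that included 255 nt of the longest Psmd9 mRNA and exons of 11 other genes. The smaller (chr5:123228769-123230656, log10 p of -29.7) touched no exon of a coding Psmd9 isoform and 1634 nt of the lincRNA Gm26745 on the opposite strand. The Psmd9 peak in the 3′ UTR had a fold of 1.62 and a log10 p of -2.57.

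The Psmg chaperones build the alpha ring of the core. Psmg3 had a fold of 1.66 over the stop codon (log10 p of -5.44) and one of 9.48 in a non-coding isoform (log10 p of -3.14). Psmg4 had a fold of 2.39 over the stop codon (log10 p of -8.47) and of 1.71 over the start codon (log10 p of -4.70). Psmg1 and Psmg2 had no peak, and whether they were expressed cannot be read from a list of peaks.

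Psme1 and Psme2 encode the subunits of the interferon-induced 11S activator, which opens the core without ATP. Both had 3 peaks, all with p-values under 0.001. For Psme1 (ENSMUSG00000022216) the peak over the stop codon (chr14:55580707-55581529) had a fold of 2.18 and a log10 p of -127, lower than at any other proteasome gene but Psma3 and Psmd13, and those in the coding sequence had folds of 1.29 (log10 p of -25.5) and 1.16 (log10 p of -5.01). In Psme2 (ENSMUSG00000079197) the highest fold was at the other end of the coding sequence. It was 2.03 over the start codon (log10 p of -31.4), 1.27 in the coding sequence (log10 p of -17.5) and 1.25 over the stop codon (log10 p of -12.6). Psme2b had no peak. The coding sequences of Psme2 and Psme2b, 720 nt each, were 99.3% identical, so reads of the pair could be assigned to either and the Psme2 values are uncertain in that respect.

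The other activators and the inhibitor had less significant peaks. Psme3, the nuclear activator, had a fold of 3.45 over the start codon (log10 p of -5.89), of 1.40 at the end of the 3′ UTR (log10 p of -8.30) and of 1.19 in the coding sequence (log10 p of -2.76). Psme4 had a fold of 1.58 in the 3′ UTR (log10 p of -5.05). Psmf1, the proteasome inhibitor, had 1 peak, in a non-coding isoform, with a fold of 3.79 and a log10 p of -1.38. Of Psmc3ip, which is no proteasome gene, the peaks had folds of 2.06 (log10 p of -2.84) and 11.4 (log10 p of -2.09), the second in a non-coding isoform.

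There were 11 strong peaks in 9 genes, and 6 of the 11 touched no exon of a coding isoform of the assigned gene, a share of 54.5% against 17.6% of all strong peaks of protein-coding genes. A p-value under 0.001 was reached by 6 of the 11, a share of 54.5% beside 53.9% of all strong peaks. Strong peaks with a p-value under 0.001 were found in 5 genes (10%, against 11.9% of all protein-coding genes). Some pairs of fold and p recurred exactly across the list. The pair of 9.48 and -1.69 seen at Psma1 was listed for 845 peaks, that of 11.4 and -2.09 seen at Psmb7 and Psmc3ip for 532, and that of 5.69 and -1.63 at Psmc2 for 200. The peaks of Psmd12 and Psmd13 were the strong ones that held coding exons over the stop codon.

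**Figure D2:**
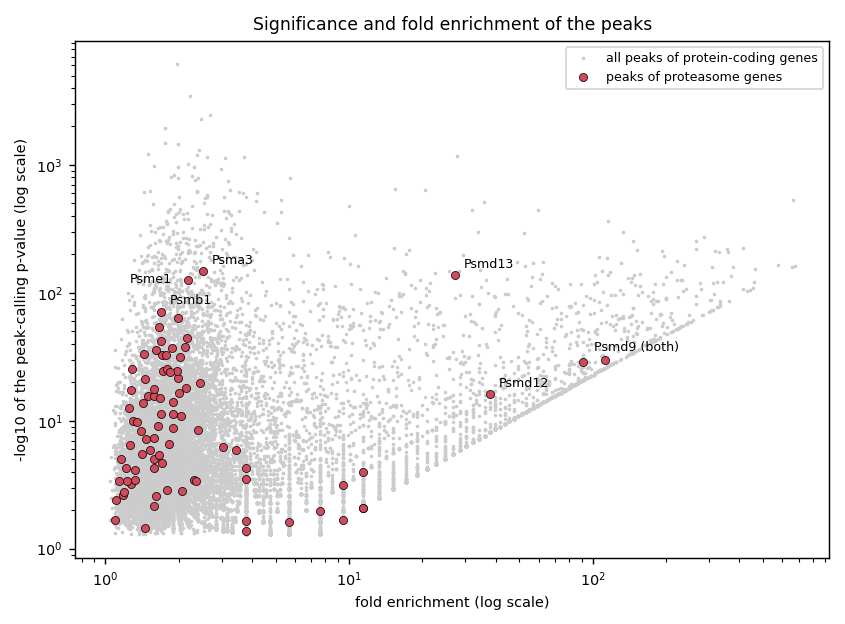
Significance (-log10 of the peak-calling p-value, log axis) against fold enrichment (log axis) for the peaks of all protein-coding genes in grey and the 86 proteasome peaks in red. Most proteasome peaks lie at folds under 2 over a wide range of significance, Psma3 and Psme1 combine folds of 2.51 and 2.18 with very low p-values, and Psmd13 combines a fold of 27.1 with a log10 p of -137.

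A peak over the stop codon was found in most proteasome genes, although most single peaks lay elsewhere. On the longest coding transcript, 74 of the 86 peaks could be placed, in 44 of the 45 genes (97.8%, against 94.4%). A peak covered the stop codon in 30 of the 44 genes (68.2%), against 32.1% of all protein-coding genes with a placed peak. On the transcript with the longest coding sequence it was 33 of 44 (75%, against 33.2%), so coverage in a single gene can depend on the isoform. The 30 peaks had folds from 1.25 to 37.9 with a median of 1.83, and 29 had a p-value under 0.001. Of the 30 genes, 11 had no other peak. Among the remaining 19 the peak over the stop codon was the most significant one in 15 (78.9%, against 68.2% of all such genes). A peak over the start codon was found in 13 genes (29.5%, against 23.6%), with folds from 1.32 to 91.0 and a median of 1.71. The fold of 91.0 was that of the long Psmd9 span with exons of 11 other genes, and the next highest was 3.45 at Psme3. Both codons were covered in 8 genes (18.2%, against 13.5%), namely Psma3, Psmb1, Psmb4, Psmb6, Psmb8, Psmb10, Psme2 and Psmg4. Coverage of the start codon was more common in the core, with 8 of its 19 genes, than in the cap, with 1 of 17 (Psmd8). The remaining genes with it were Psmd9, Psme2, Psme3 and Psmg4.

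**Figure D3:**
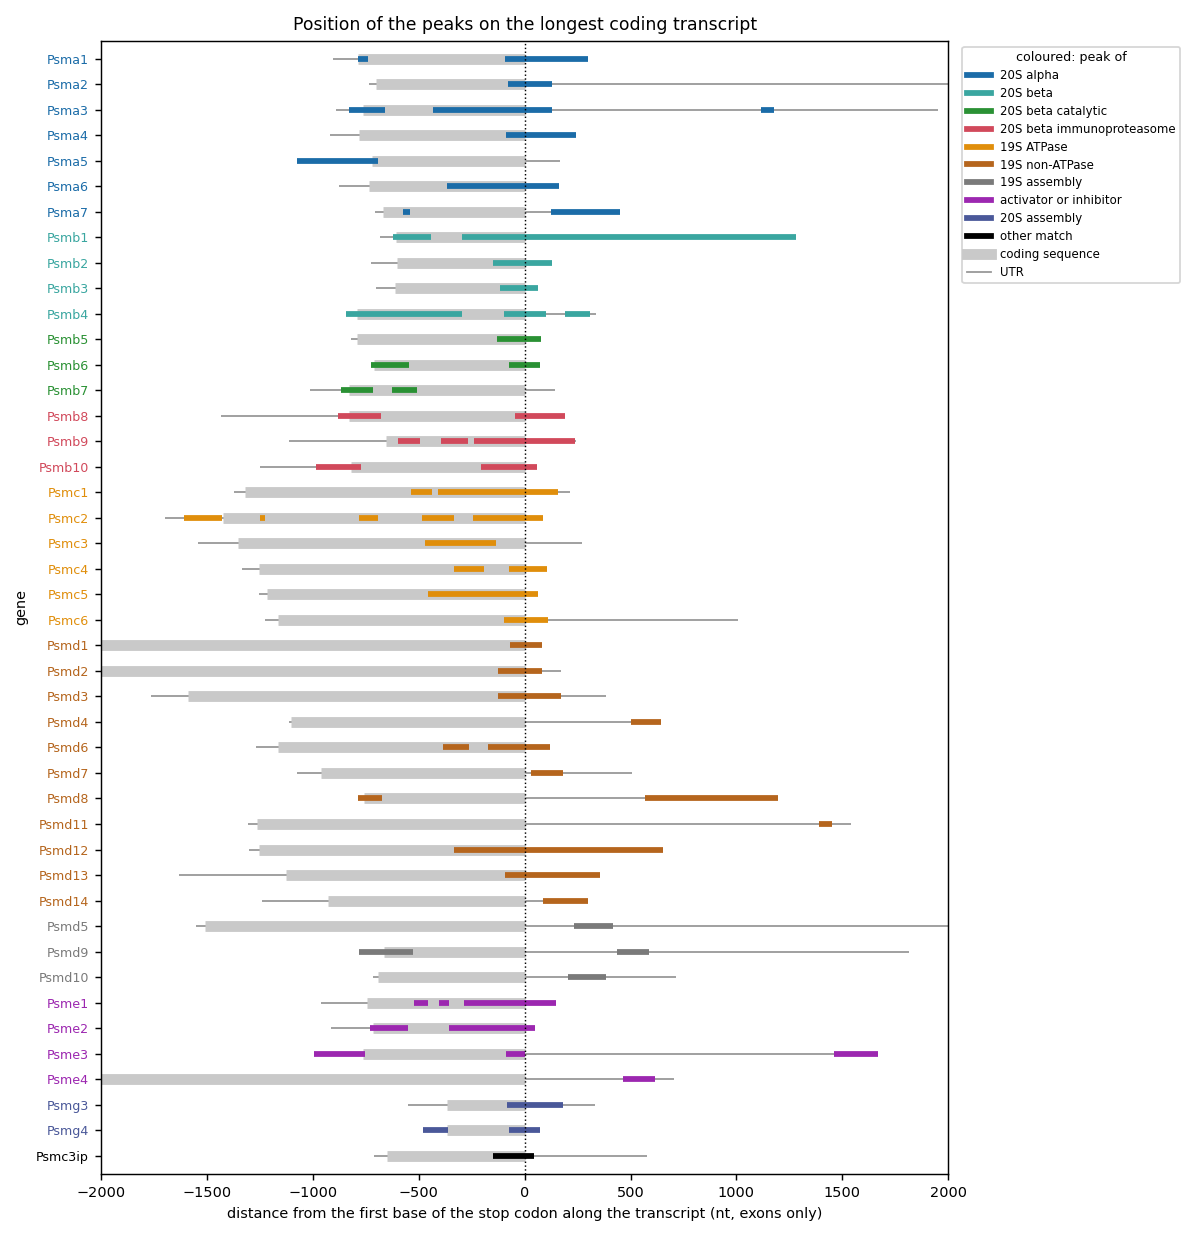
Position of the 74 placed peaks (coloured by role) on the longest coding transcript of 44 genes, in nt of exon sequence from the first base of the stop codon at 0, with the coding sequence as a thick grey bar and the UTRs as thin lines. Peaks cross the dotted line at the stop codon in 30 of the genes, and most 3′ UTRs shown are short. Transcripts longer than the axis are clipped at its ends.

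Proteasome mRNAs are short, and whether length bears on these shares was not tested. Their median length was 1490.5 nt, against 2683 nt for all protein-coding genes, and the median 3′ UTR of the genes with a placed peak was 282 nt, against 1116 nt. The median peak held 186.5 exonic nt (203 nt for all) but took 12.7% of its transcript (6.33% for all). Of the 30 peaks over the stop codon, 19 reached the end of the transcript, a share not computed here for all genes. Genes were also set side by side by 3′ UTR length, in classes chosen after seeing the data. With a 3′ UTR of at most 300 nt, the stop codon was covered in 20 of 24 proteasome genes (83.3%), against 60.2% of all genes of that class. Above that and up to 1000 nt it was covered in 6 of 11 (54.5%, against 33.7%), and over 1000 nt in 4 of 9 (44.4%, against 22.2%). The proteasome share was thus the higher one in each class, and it was highest for the shortest UTRs, as in all genes. Other features of the transcripts that could differ were not matched, and their part was not tested.

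By its centre, a peak lay in the coding sequence in 43 of the 74 cases (58.1%, against 33.6%), in the 3′ UTR in 25 (33.8%, against 56.5%) and in the 5′ UTR in 6 (8.11%, against 9.95%). The centre was within 200 nt of the stop codon in 32 (43.2%, against 22.3%). The authors' own assignment gave 46 of the 86 peaks to the 3′ UTR (53.5%, against 59.4%), 23 to an exon (26.7%, against 20.04%) and 17 to the 5′ UTR (19.8%, against 20.6%). It placed more peaks in the UTRs than the centre on the longest transcript did.

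By density of DRACH sites, the peaks were not richer in the m6A consensus than the rest of the same mRNAs. On the mRNA strand the exonic parts of the peaks held 20.6 DRACH sites per kb, beside 21.1 in the remainder of the same transcripts, a ratio of 0.978. The ratio was 1.0 over all protein-coding genes, so this measure showed no excess in their peaks either. The study reported significant enrichment of DRACH motifs in the m6A peaks of NK cells from a motif search with HOMER. That is another measure than the density used here, and the search was not repeated. For GGAC the densities were 4.62 and 4.40 per kb, with a ratio of 1.05, against 0.984 for all. At least 1 DRACH site was present in 70 of the 74 placed peaks (94.6%, against 90.6% of all placed peaks) and GGAC in 44 (59.5%, against 55.0%). Peaks differ in length, so these shares describe the windows as listed, and a match is no evidence of a modified base. The 4 peaks without DRACH were at Psmc2, Psmd11, Psme1 and Psmg4.

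Ribosomal protein and translation initiation factor genes were set beside the proteasome genes. A peak was found in 71 of 76 ribosomal protein genes (93.4%) and 48 of 55 initiation factor genes (87.3%), so the 90% of the proteasome genes lay between them. The strong shares were 15.8% and 18.2%, and the median folds 2.05 and 1.85. The stop codon was covered in 70.4% of the ribosomal protein genes and 43.5% of the initiation factor genes with a placed peak, beside 68.2% for the proteasome. The start codon gave the same order, with 64.8% in ribosomal protein genes, 29.5% in proteasome genes and 15.2% in initiation factor genes. The ribosomal protein mRNAs had a median length of 925.5 nt and those of the initiation factors 2556 nt. The 3 sets also followed an order of length, whose part in these shares was not tested.

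**Figure D4:**
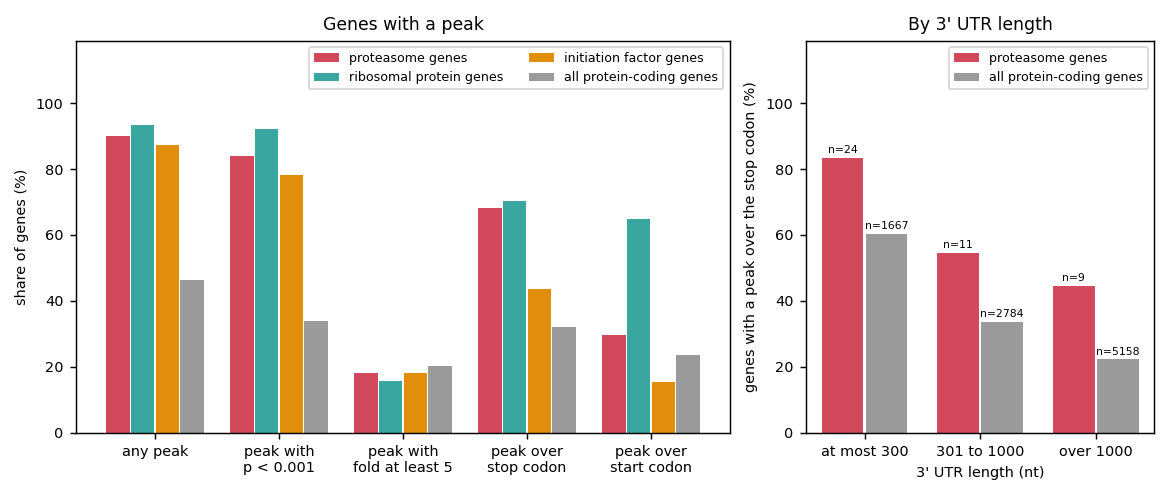
Left, share of genes (%) with a peak of each kind in 50 proteasome, 76 ribosomal protein, 55 initiation factor and 21951 protein-coding genes (for the codons, of genes with a placed peak). Right, share of genes with a peak over the stop codon (%) by 3′ UTR length, with the number of genes over each bar. The proteasome bars reach 90% for any peak and 18% for a strong peak, and exceed those of all genes in each of the 3 classes of 3′ UTR length.

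Genes that work with the proteasome also carried peaks. The list of partner genes took in ubiquitin receptors and deubiquitinases of the cap, the core assembly factor Pomp, shuttle factors, ubiquitin genes and regulators of proteasome gene transcription. Of the 26 found in the annotation, 24 had a peak (92.3%, against 46.3% of all protein-coding genes). A peak with a p-value under 0.001 was found in 22 (84.6%, against 34.0%). Ngly1 and Vcp, which act on substrates before degradation and, for Ngly1, in the processing of Nfe2l1, had no peak. The median fold was 1.85 over 66 peaks. A strong peak was present in 8 of the 26, beside the 20.1% of all protein-coding genes. Usp14, a deubiquitinase of the cap, had the highest fold with 49.3 (log10 p of -25.6), and Uchl5, the other deubiquitinase listed, had one of 5.69 (log10 p of -2.59). Pomp had one of 9.48 with the recurrent log10 p of -1.69, and the shuttle factor Rad23b one of 6.16 that touched 0 nt of a coding isoform (log10 p of -3.31). The protease Ddi2, which activates Nfe2l1, had one of 8.22 (log10 p of -3.77). The ubiquitin gene Ubb had one of 8.53 (log10 p of -4.21), and ubiquitin sequences are shared between genes, so its reads could be split among them. The most significant peaks of Uchl5, Pomp, Rad23b and Ubb were other ones, with folds of 1.61, 1.90, 1.58 and 1.62. Their log10 p values were -10.6, -43.6, -5.57 and -191.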

How the data were processed

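Per the labels, 2 m6A immunoprecipitates and 2 input libraries of splenic NK cells were sequenced, and the authors deposited 1 peak list for GRCm38. According to the study's methods and processing notes the authors trimmed reads, aligned them with HISAT2 (version 1.0 in the notes), called peaks with exomePeak and annotated them with ChIPseeker (1.0). The notes also name fastp, cutadapt, HOMER (4.1) and StringTie (1.0). How the libraries were combined is not given in the sources used here. The deposited fold enrichment is a ratio of immunoprecipitate over input, and the deposited significance score is a log10 p-value of each peak, at most -1.30. The list gives no value per library, so depth is unknown and no test or replicate error was possible.

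Of 20751 rows, 24 were repeats, which left 20727 peaks in 12351 genes, of which 12332 were found in GENCODE M21. Peaks were placed by the centre of their exonic part on the longest protein-coding transcript of the gene. The stop codon counts from its first base. A peak with a fold of at least 5, the value used in the study, is called strong, and one covers a codon if its exonic part holds any base of it. The coding sequences were compared by global alignment as percent of the shorter one. Sequences were read from the reference transcripts of GENCODE M21. Python 3.11.15, pandas 2.3.3, numpy 2.4.6, biopython 1.88 and matplotlib 3.10.9 were used, and the placement was tested on simulated transcripts.

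Values are given for the immunoproteasome genes and their counterparts, Psme1, Psme2, genes with a strong peak, the 5 genes with the lowest p-value and genes with 2 or more peaks, and in part for the rest of each role. Of the partner genes, those without a peak or with a strong one are named, except that some genes of the partner and marker lists are not reported here by name. The members and lists were chosen with earlier results of these data known. Alternatives changed the fold and p-value limits, the overlap with coding isoforms, the transcript chosen, the stop codon window and the motif.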

Additional observations from a re-analysis of the deposited data

How the results depend on the processing

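Of 41 alternative values for 12 results, 35 stayed within a range set around the reported value and 6 moved. That range was a 95% interval for shares, medians and motif ratios. For the number of peaks (57.3 to 129) and of immunoproteasome genes near the stop codon (2 to 4.5) it was set by hand. For the fold difference between the immunoproteasome and its counterparts it was the spread of their peaks (-1.20 to 1.30 on the log2 scale). These last ranges were wide, so staying within them says little. The share of proteasome genes with a peak fell from 90% to 50% at a fold of at least 2 (35.0% of all protein-coding genes), and that of partner genes from 92.3% to 65.4%. The share with a strong peak was 8% with at least 50 nt of a coding isoform (16.8% of all). It was 28% at a fold of at least 3 (26.2% of all) and 12% at a fold of at least 10 (12.7% of all), so its side of the background depended on the limit. The median fold was 2.04 for the strongest peak of each gene (3.79 of all). Of the centres, 31.1% were at most 100 nt from the stop codon (12.7% of all) and 56.8% at most 400 nt (36.05% of all). Each of the 6 moves came with a changed limit or choice of peak, and what lay behind it was not tested. The totals without Psmc3ip (strong share 16.3%, stop codon 67.4%), the classes of 3′ UTR length and the count of immunoproteasome genes by coverage of the stop codon were chosen after seeing the data.

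No paired analysis was possible because the list holds no value per library, and leaving out each replicate was not possible for the same reason. Depth, the part of RNA from other cells and differences between the libraries could not be read from the list. Whether strand was used is not given in the sources used here, so reads of overlapping genes could not be told apart at the 9 of 86 peaks that overlap exons of another gene. The share of such peaks over all genes was not computed here.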
